A study of Mus musculus with 768 samples.

Results

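The caseins are the major proteins of milk, and in the mouse 5 genes on chromosome 5 encode them. They are Csn1s1 (alpha-S1-casein), Csn2 (beta-casein), Csn1s2a and Csn1s2b (the alpha-S2-like gamma and delta caseins) and Csn3 (kappa-casein). All 5 were taken by symbol from the 23997 gene names of the count tables, and each was present in both. They were read in single mammary cells of 2 genotypes on a C57BL/6 background, sorted from dissociated inguinal glands by reporter fluorescence into 384-well plates and sequenced by Smart-Seq2, a full-length RNA-seq method for 1 cell per well. Control mice were WAP-CRE; R26-tdTomato, in which Cre switches on a red fluorescent protein. The other mice were WAP-CRE; R26-N1ICD-EGFP, in which Cre switches on the Notch1 intracellular domain, the active signalling form of the receptor, with green EGFP. The study's design note places both after lactation, at 3 to 4 months. Every cell of either genotype therefore carries the WAP-CRE transgene, whose promoter is that of whey acidic protein, itself a milk gene of alveolar luminal cells, so marked cells are those that used that promoter and their descendants. There was 1 plate per genotype and no animal was named. The reporter, the plate and the genotype cannot be told apart from one another, each genotype counts as 1 sample, and no difference between plates has a replicate check or a test.

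Casein genes are switched on in pregnancy when prolactin, acting through its receptor and the kinase Jak2, activates the transcription factor Stat5, with the glucocorticoid receptor, C/EBP-beta and Elf5 acting alongside. Csn1s1, Csn2 and the Csn1s2 proteins bind calcium phosphate through phosphoserine clusters, and kappa-casein coats the surface of the resulting micelles and keeps them in suspension. In the resting gland the same genes are read mainly in luminal progenitors and alveolar cells, while hormone-sensing luminal cells, basal cells and leukocytes are not casein-producing cell types.

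Of the 5 genes, 3 have a promoter entry in the RefSeq table used here (GRCm38.p6), and these are shown because every one of them carries the 9-base Stat5 palindrome TTCNNNGAA. Each runs from 250 bases before the start used for that promoter entry to 50 bases after it, 5′ to 3′ on the gene's own strand. The capitals mark the palindrome. For Csn2 that start lies a few bases inside the gene's first base at 87699429, and its positions are counted from that start. The regions are chr5:87665958-87666257 (plus strand), chr5:87699376-87699675 (minus strand) and chr5:87774200-87774499 (plus strand).
Csn1s1: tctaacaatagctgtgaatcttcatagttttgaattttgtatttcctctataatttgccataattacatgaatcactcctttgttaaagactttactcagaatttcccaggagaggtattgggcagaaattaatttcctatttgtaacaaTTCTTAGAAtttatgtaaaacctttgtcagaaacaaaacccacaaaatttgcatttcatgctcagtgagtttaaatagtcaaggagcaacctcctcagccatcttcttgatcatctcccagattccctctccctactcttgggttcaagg
Csn2: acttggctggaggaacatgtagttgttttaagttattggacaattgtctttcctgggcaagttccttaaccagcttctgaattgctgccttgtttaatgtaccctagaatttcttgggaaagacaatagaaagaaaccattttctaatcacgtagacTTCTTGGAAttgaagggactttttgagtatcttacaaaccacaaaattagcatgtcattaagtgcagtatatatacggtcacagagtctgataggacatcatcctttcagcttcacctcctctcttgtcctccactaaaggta
Csn1s2a: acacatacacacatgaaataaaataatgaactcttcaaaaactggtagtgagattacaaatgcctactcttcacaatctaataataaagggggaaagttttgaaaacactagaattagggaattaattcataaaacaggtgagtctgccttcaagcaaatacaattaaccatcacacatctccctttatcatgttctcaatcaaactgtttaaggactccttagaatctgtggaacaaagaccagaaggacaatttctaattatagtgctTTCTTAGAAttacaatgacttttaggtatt
The palindrome lay at -100 to -92 in Csn1s1 as TTCTTAGAA, at -93 to -85 in Csn2 as TTCTTGGAA, and at 20 to 28 in Csn1s2a as TTCTTAGAA. Positions are distances in bases from the start, with a minus sign for upstream. It was found in 8.30% of the 32851 promoters of the same length in the table. TGGGAA, the core letters bound by the Notch partner RBPJ, occurred in the Csn1s1 promoter (minus strand, -147 to -142) and in the Csn2 promoter (plus strand, -136 to -131), against 25.6% of all promoters. AGAACA, a glucocorticoid receptor hexamer, occurred in Csn1s2a on the minus strand at -59 to -54, against 18.97% of all promoters. Neither TTGCNNAA (C/EBP) nor TATAAA occurred in any of the 3 windows, against 10.8% and 13.6% of all promoters. Both strands were searched, no match overlapped another, and a match is only a match of letters.

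The 5 genes lie within 266.3 kb of chromosome 5 (GRCm38.p6), in the order Csn1s1 (87666208 to 87682578, plus strand), Csn2 (87692619 to 87699429, minus strand), Csn1s2a (87774450 to 87788798, plus strand), Csn1s2b (87808121 to 87824421, plus strand) and Csn3 (87925579 to 87932550, plus strand). Csn1s1 and Csn2 are 10.04 kb apart on opposite strands, and the widest gap, 101.2 kb, separates Csn1s2b from Csn3. No pair of casein genes shared a 40-base stretch in its GENCODE transcripts. Csn3 is overlapped on the other strand by the lncRNA 1700066N21Rik, which had 0 reads in control and 9 reads in N1ICD luminal progenitor-like cells. Whether the counting used strand is not given in the sources used here, so reads of the pair could not be told apart.

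A well was kept at 50000 or more reads and 1000 or more detected genes, which left 86.98% of the 384 control wells (50048 to 608476 reads, median 241888) and 73.7% of the 384 N1ICD wells (51736 to 615615, median 348469). Clustering each plate without the caseins and 16 other milk genes put 70.7% of kept control cells (5 clusters of 67, 62, 49, 31 and 27 cells) and 60.8% of kept N1ICD cells (5 clusters of 39, 39, 37, 37 and 20 cells) in the luminal progenitor-like class. It also gave 65 and 7 hormone-sensing luminal-like cells, 26 and 48 leukocyte-like cells, and 7 basal-like control cells. A further N1ICD cluster of 56 cells had 5 raised progenitor markers (Kit, Elf5, Aldh1a3, Ehf and Plet1). It also had 1 each of the hormone-sensing, basal and fibroblast markers raised. Its leading genes, headed by Nkd2, Cdh15 and Stra6 and including Krt14, held more markers of another class, so it was left unnamed. In the luminal progenitor-like cells the 8 progenitor markers summed to a median of 5218 CPM (reads scaled to a depth of 1000000) in control and 3567 CPM in N1ICD, the 8 pan-epithelial markers to 9843 and 10770 CPM, and the 14 leukocyte markers to 0 and 3.24 CPM. In the unnamed cluster the progenitor and pan-epithelial markers had medians of 2850 and 11414 CPM. The eGFP row had 5 or more reads in 81 kept N1ICD cells (28.6%) and in no kept control cell, where the highest count was 2. Notch1 itself stood at 274.5 CPM in control and 281.8 CPM in N1ICD luminal progenitor-like cells.

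In luminal progenitor-like cells the 4 caseins with substantial reads were all lower on the N1ICD plate than on the control plate, by 2.51 to 5.77 times in pooled CPM. Summed over the 5 genes, caseins took 3.07% of all reads of these control cells and 0.868% of those of N1ICD cells. The 4 genes lower by at least 1.5 times were 4 of 4 measured, where measured means 5 CPM or more on either plate and the ratio is of log2(CPM + 1). Among the 11367 genes measured in these cells, 16.2% were lower and 22.8% higher by that size, and the median log2 ratio was 0.10. The luminal progenitor-like cells held 99.3% of the casein reads of kept control cells and 99.4% of those of kept N1ICD cells. Over all kept cells, where 16.7% of 12021 genes were lower and 22.5% higher, the summed level was 20065 CPM in control and 5352 CPM in N1ICD, a log2 ratio of -1.91. Fewer casein-producing cells and less casein RNA per cell cannot be told apart in that pooled figure, so the levels are given per cell within 1 class.

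Csn3 and Csn1s1 led the cluster. Per kilobase of the principal GENCODE transcript, the pooled level in control luminal progenitor-like cells was 9335 CPM per kb for Csn3, 8133 for Csn1s1, 2175 for Csn2, 1561 for Csn1s2a and 1.67 for Csn1s2b. In N1ICD cells the same quantity was 2943 CPM per kb for Csn3, 1826 for Csn1s1, 867.7 for Csn2, 270.5 for Csn1s2a and 0 for Csn1s2b. The order was the same on both plates, and levels did not follow position, since the highest 2 genes sit at opposite ends of the cluster. With the longest principal transcript of each gene, Csn3 and Csn1s1 are by ratio the closest neighbours in this order in control cells. By difference in CPM per kb, Csn2 and Csn1s2a are closer. That depends on the transcript taken, since Csn3 has 3 principal transcripts of 991 to 1596 bases. The ranges of the Csn3 and Csn1s1 levels across cells overlapped almost completely.

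**Figure D1:**
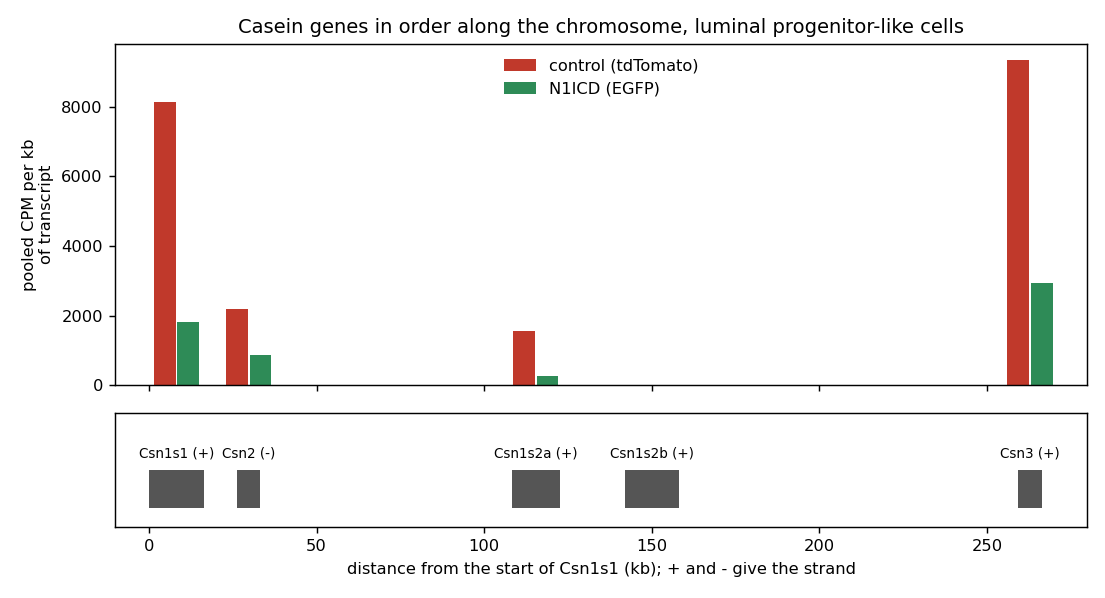
Upper panel: pooled CPM per kilobase of transcript (y axis) for each casein in luminal progenitor-like cells, control in red and N1ICD in green, placed at the gene's distance in kb from the start of Csn1s1 (x axis); lower panel: the genes as boxes to scale, with strand. Csn1s1 and Csn3, at the 2 ends, have the tallest bars (8133 and 9335 CPM per kb in control), every green bar is below its red neighbour, and Csn1s2b has no visible bar. The bars are sums over the cells of 1 plate each and carry no error bar.

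Kappa-casein, Csn3, was the most widely read casein. Across control luminal progenitor-like cells its level ranged from 2.46 to 77538 CPM with a median of 11912 and quartiles of 6823 and 19775. Across N1ICD cells it ranged from 0 to 34162 CPM with a median of 2040 and quartiles of 9.90 and 6824. The N1ICD upper quartile therefore stood where the control lower quartile stood, though the ranges overlapped, and 19 N1ICD cells (11.05%) were above the control median. Pooled, Csn3 was 14899 CPM in control (exact 95% Poisson interval 14866 to 14932) and 4697 CPM in N1ICD (4679 to 4714), 3.17 times lower, a log2 ratio of -1.67. These intervals cover counting error only, and amplified reads carry no identifiers that would make them separate molecules.

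Csn1s1, a calcium-sensitive casein, was read in every control luminal progenitor-like cell. Its control levels ran from 5.82 to 83485 CPM with a median of 8599, and its N1ICD levels from 0 to 23382 CPM with a median of 1079. Only 12 N1ICD cells (6.98%) exceeded the control median, and 24 control cells exceeded every N1ICD cell. The pooled level was 11476 CPM in control and 2577 CPM in N1ICD, 4.45 times lower (log2 ratio -2.15).

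Csn2, beta-casein, had the smallest pooled ratio between plates of the 4 widely read genes. Control cells ran from 0 to 43810 CPM with a median of 904.0, and N1ICD cells from 0 to 12754 CPM with a median of 3.16. While the median cell was near 0 on the N1ICD plate, 56 N1ICD cells (32.6%) lay above the control median. Pooled, Csn2 was 2890 CPM in control and 1153 CPM in N1ICD, 2.51 times lower (log2 ratio -1.32). The difference in the pooled level was thus smaller for Csn2 than for the other 3 genes, and this order among genes was not tested. The order was another by median cell. There the ratio between plates was larger for Csn2 than for Csn3 (11912 and 2040 CPM) and Csn1s1 (8599 and 1079 CPM).

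Csn1s2a had the largest pooled ratio of the 4 widely read genes over the whole plates. Control cells ran from 0 to 35441 CPM with a median of 473.8, and N1ICD cells from 0 to 5336 CPM with a median and an upper quartile of 0. A read of Csn1s2a was present in 74.2% of control cells and in 36 N1ICD cells (20.9%). Pooled, it was 1436 CPM in control and 248.9 CPM in N1ICD, 5.77 times lower (log2 ratio -2.52). Within plate columns 13 to 24 the log2 ratio was -1.88 and within columns 1 to 12 it was -2.89, so the size of this difference depended on which part of the plates was read. In columns 13 to 24 Csn1s1, at -1.92, had the larger ratio. The control level itself was 1912 CPM in columns 1 to 12 and 894.0 CPM in columns 13 to 24, against 256.6 and 241.4 CPM on the N1ICD plate. In column 1 a single control cell held 17031 of the 75429 Csn1s2a reads of the class. The control medians were 558.1 CPM in columns 1 to 12 and 307.5 CPM in columns 13 to 24. The part of that cell in the difference between columns was not tested.

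Csn1s2b, the delta-casein gene, was nearly silent. Among kept control cells 73 reads fell in 5 cells, 54 of them in 1 luminal progenitor-like cell, and no kept N1ICD cell had a read. In luminal progenitor-like cells the control level of 1.35 CPM (71 reads in 4 cells) was at least 26.9-fold higher than the N1ICD level, taking a floor of 3 reads over the group. Without the cell of 54 reads that bound was 6.49-fold. The absence of a read from every N1ICD luminal progenitor-like cell allows a share of up to 1.74%, while the control share was 1.69% (4 cells, exact Clopper-Pearson 95% interval 0.464% to 4.28%), so the shares of cells with a read were not distinguishable at this number of cells. Wells below the filter held a further 20 reads on the control plate and 1 read on the N1ICD plate.

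**Figure D2:**
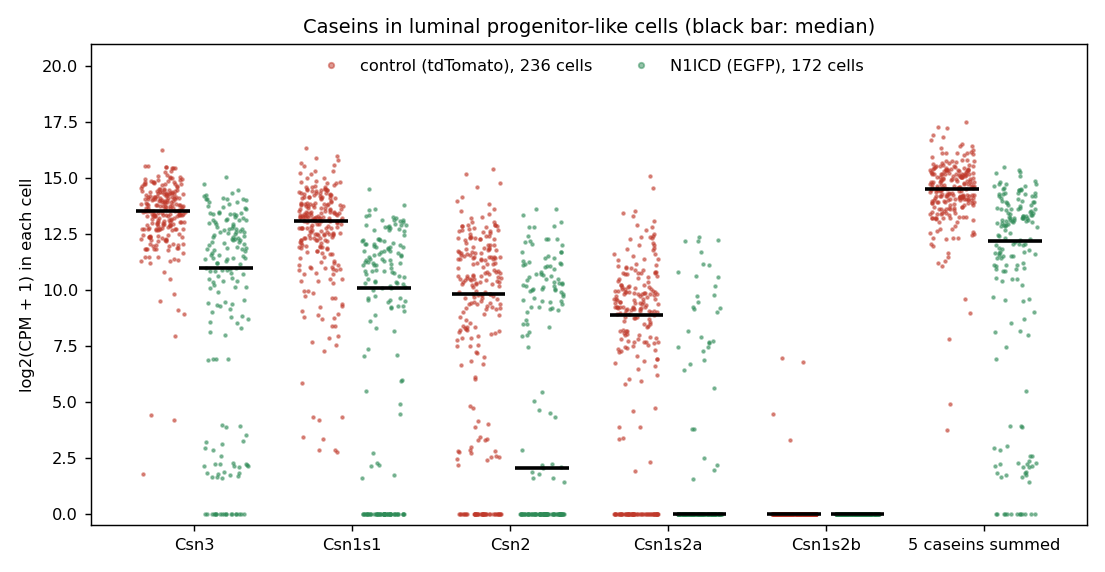
Each point is 1 luminal progenitor-like cell, with log2(CPM + 1) on the y axis and the 5 caseins and their sum on the x axis; control in red, N1ICD in green, black bars the medians. Medians of the sum are 23773 CPM in control and 4728 CPM in N1ICD, and the N1ICD points form an upper band that overlaps the control points and a lower band near 0 that the control plate hardly has.

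The spread of the summed level differed in shape between the plates. Control cells ran from 12.3 to 188369 CPM, with quartiles of 14643 and 37809 CPM around the median of 23773. N1ICD cells ran from 0 to 46370 CPM, with quartiles of 282.6 and 12499 CPM around the median of 4728. The low end was read against each plate's own level, because the level in wells of the other named classes differed between plates. Their medians were 26.4 to 39.01 CPM on the control plate and 3.26 to 3.31 CPM on the N1ICD plate. The unnamed N1ICD cluster, which had raised progenitor markers, had a median of 4.54 CPM. At or under 0.2% of the plate's pooled casein level (40.1 CPM in control, 10.7 CPM in N1ICD) were 2 control cells (0.847%, exact interval 0.103% to 3.03%) and 35 N1ICD cells (20.3%, interval 14.6% to 27.1%). At or under 1% of that level were the same number of control cells and 39 N1ICD cells (22.7%, interval 16.6% to 29.7%). The 2 control cells, at 12.3 and 29.1 CPM, had only 14.8 and 29.1 CPM of the pan-epithelial markers. At the upper end, 84.3% of control cells (interval 79.04% to 88.7%) and 55 N1ICD cells (31.98%, interval 25.1% to 39.5%) had 10000 CPM or more. The 6 cells at 100000 CPM or more were all control cells. The N1ICD plate thus had both a larger share of cells near the level of its other named classes and a smaller share at the highest levels. These shares hold for the luminal progenitor-like class of the main clustering and were not recomputed under other filters or clusterings. In the control cell of highest share, caseins made up 18.8% of all reads, and in the corresponding N1ICD cell 4.64%.

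After each cell was thinned to 50000 reads, a read of Csn3 was present in 99.2% of control luminal progenitor-like cells and 76.7% of N1ICD ones, of Csn1s1 in 97.5% and 65.1%, of Csn2 in 77.97% and 47.7%, and of Csn1s2a in 73.3% and 17.4%. Unthinned, the shares were 100% and 88.95% for Csn3, 100% and 68.6% for Csn1s1, 82.2% and 53.5% for Csn2, and 74.2% and 20.9% for Csn1s2a. As a background, the median casein level in leukocyte-like wells was 26.7 CPM in control (median depth 207726 reads) and 3.26 CPM in N1ICD (median depth 339930). The thinned share of wells with any casein read was 73.1% in leukocyte-like and 83.1% in hormone-sensing luminal-like control wells, against 25% of leukocyte-like N1ICD wells, so this background differed between plates too. Over all kept cells the share was 93.7% in control and 62.5% in N1ICD. A share of cells with a read is therefore not read here as a share of cells expressing a casein, and the levels above carry the comparison.

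The 4 caseins were read in a nested order with exceptions, and it stood apart from the shares of all cells mainly on the N1ICD plate. Of the control cells with a thinned read of Csn1s2a, 100% also had Csn3, 99.4% had Csn1s1 and 88.4% had Csn2, while of the cells with Csn3 only 73.9% had Csn1s2a. Among all control cells of the class the shares were 99.2% for Csn3, 97.5% for Csn1s1, 77.97% for Csn2 and 73.3% for Csn1s2a. Apart from that with Csn2, the control shares were thus near those of all cells. On the N1ICD plate all 30 cells with Csn1s2a had Csn3, and 29 each had Csn1s1 and Csn2, against 76.7%, 65.1% and 47.7% of all N1ICD cells of the class. All 4 genes together were read in 64.4% of control cells and in 28 N1ICD cells (16.3%). The commonest other pattern on the N1ICD plate was Csn1s1, Csn2 and Csn3 without Csn1s2a, in 49 cells (28.5%), and 34 cells (19.8%) had none of the 4, against 1 control cell. Csn3 was the only casein in 21 N1ICD cells and 3 control cells. Outside the nested order, Csn1s1 was the only one in 5 N1ICD cells, and Csn2 in 1 cell of each plate. The order of the genes in this nesting was the order of their median levels in control cells.

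Levels of the caseins went together from cell to cell, only in part. Across control luminal progenitor-like cells the Spearman correlation of CPM ranged over the 6 pairs from 0.27 (Csn2 with Csn3) to 0.54 (Csn1s1 with Csn1s2a), with a median of 0.45. Across N1ICD cells it ranged from 0.42 (Csn1s1 with Csn1s2a) to 0.63 (Csn1s1 with Csn3), with a median of 0.54. Csn2 and Csn3, the pair of lowest correlation on the control plate, stood at 0.59 on the N1ICD plate. Csn1s1 and Csn2, the nearest neighbours on the chromosome, had 0.51 in control and 0.57 in N1ICD. Cells share a plate, and each cell's genes share its library. Sequencing depth correlated with the summed level at 0.14 in control and 0.12 in N1ICD.

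**Figure D3:**
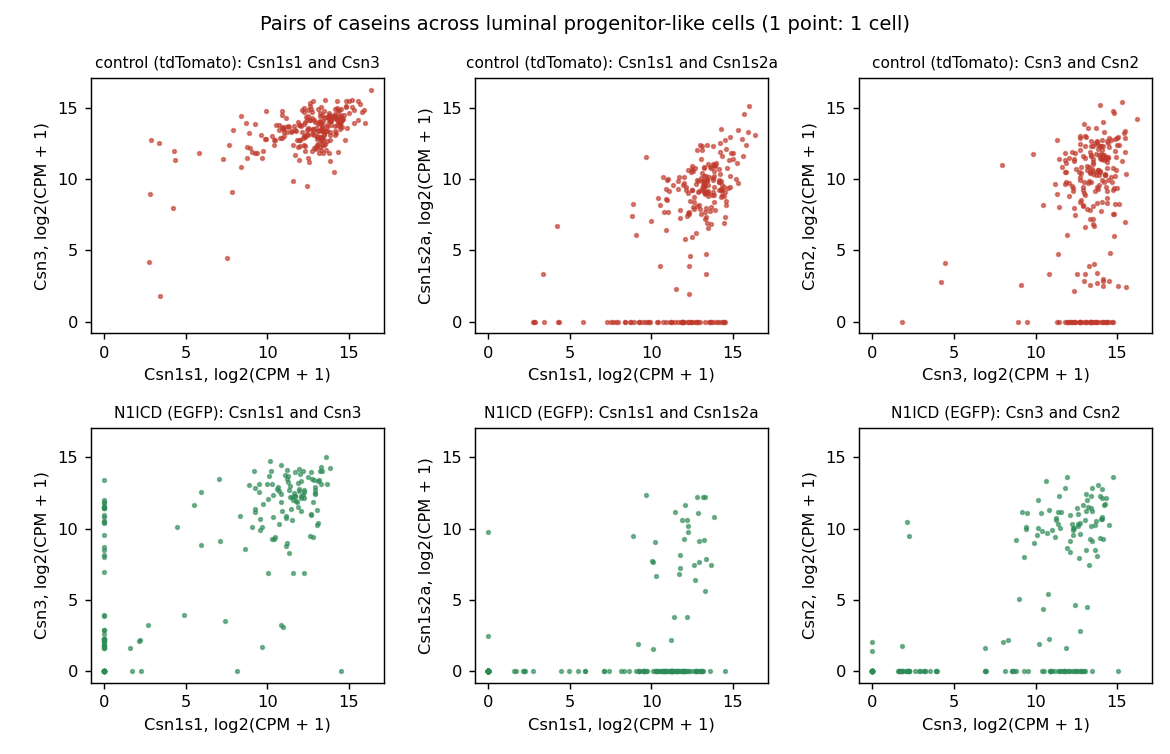
Each point is 1 luminal progenitor-like cell, with log2(CPM + 1) of 1 casein on each axis; upper row control (red), lower row N1ICD (green). Control points crowd at high levels of both genes, with a row of cells at 0 for Csn1s2a and Csn2, and N1ICD points split between an upper cloud and cells at or near 0 for 1 or both genes.

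The more restricted the gene, the fewer cells carried its reads. The 10 highest cells held 14.6% of the Csn3 reads of all kept control cells, 23.1% of those of Csn1s1, 45.02% of Csn2 and 51.7% of Csn1s2a. On the N1ICD plate the shares were 28.1% for Csn3, 32.5% for Csn1s1, 44.3% for Csn2 and 83.4% for Csn1s2a. The make-up of casein reads was led by Csn3 on both plates: 48.5% of the casein reads of control and 54.1% of those of N1ICD luminal progenitor-like cells, followed by Csn1s1 (37.4% and 29.7%), Csn2 (9.41% and 13.3%) and Csn1s2a (4.68% and 2.87%). These shares are not per length. Among control cells with 50 or more casein reads (99.2% of the class), the share of Csn3 ran from 7.41% to 99.9% with a median of 53.2%, and that of Csn2 from 0% to 84.8% with a median of 4.23%. Among such N1ICD cells (76.7% of the class) the share of Csn3 ran from 0% to 100% with a median of 55.3%.

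Clusters within the luminal progenitor-like class differed in level and make-up. In control, median summed casein was 34086 CPM in cluster 2, 28349 CPM in cluster 0, 25233 CPM in cluster 4, 20150 CPM in cluster 5 and 15066 CPM in cluster 3. Cluster 4, 31 cells led by Rapgef4, C2cd5 and Exph5, held the cell of highest level, and Csn2 and Csn1s2a made up 16.9% and 10.9% of its casein reads, against 4.64% to 11.9% and 2.38% to 3.54% in the other 4. These shares rested on few cells: without the 2 cells of most Csn1s2a reads in each cluster, Csn1s2a made up 5.25% in cluster 4 and 1.44% to 2.79% in the others, and Csn2 11.7% in cluster 4 and 12.1% in cluster 3. By median over cells, Csn1s2a was close in clusters 4 and 2, at 638.5 and 607.9 CPM. Cluster 4 cells also had the lowest median depth, 101011 reads against 205857 to 244360 in the other 4; the part of depth in these values was not tested. On the N1ICD plate cluster 3, 37 cells led by Rasl11b, Chil1 and Col9a1, had the highest median, 15503 CPM, and 0 of its 37 cells were under 10 CPM. The other 4 N1ICD clusters had medians of 1769 to 7745 CPM, and 7 to 11 cells of each were under 10 CPM. N1ICD cluster 3 also had the highest median depth, 461759 reads against 281581 to 443340 in the other 4. Its median number of detected genes was 3880, against 2068 to 3229.5. The part of depth in these N1ICD values was not tested either. Caseins were left out of the clustering, but these clusters were formed on other genes of the same cells, so no test was made between them.

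**Figure D4:**
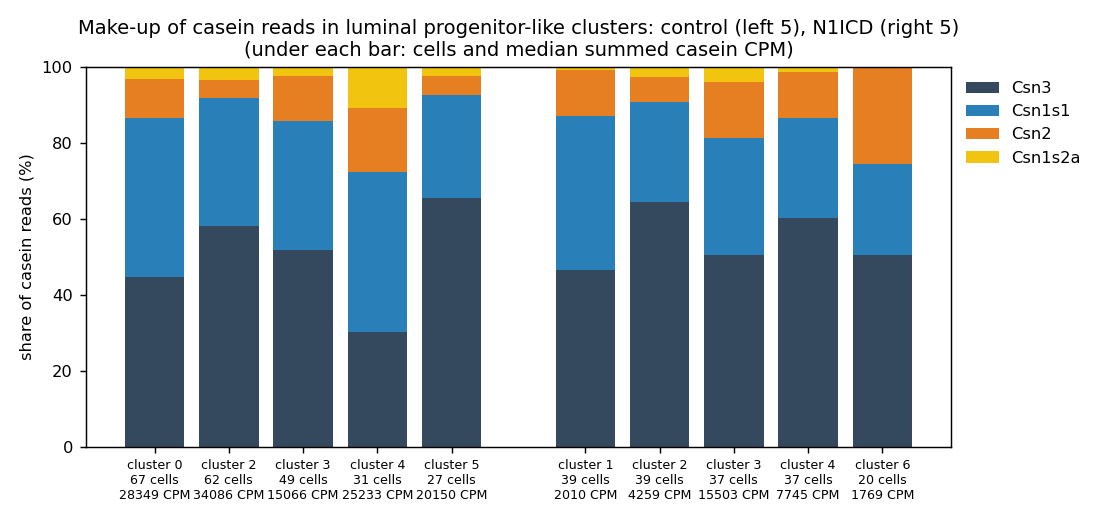
Stacked bars give the share of casein reads (%, y axis) from Csn3, Csn1s1, Csn2 and Csn1s2a in each luminal progenitor-like cluster, control on the left and N1ICD on the right, with the number of cells and the median summed casein CPM under each bar. Csn3 and Csn1s1 make up most of every bar, and the Csn1s2a part of control cluster 4, 10.9%, is 5.25% without its 2 cells of most Csn1s2a reads.

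The N1ICD plate could be divided by reads of its reporter. Such reads mark the genotype only in part. On the control plate, whose genotype names no EGFP, 78.8% of cells of the class had no eGFP read and the rest had at most 2. All cells had been sorted by reporter fluorescence, so an N1ICD cell with no eGFP read is not taken as one without N1ICD. The summed casein median was 4250 CPM in the 62.2% of luminal progenitor-like cells with no eGFP read (0 to 46370 CPM), 9511 CPM in the 7 cells with 1 to 4 reads (511.9 to 38837 CPM) and 6016 CPM in the 58 cells with 5 or more (0 to 42006 CPM). The ranges overlapped almost throughout, and the pooled level was 8288 CPM with no read and 8324 CPM with 5 or more. All cells came from 1 plate, and median depth was 326740 reads in cells with no eGFP read and 425423 reads in those with 5 or more.

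Outside the luminal progenitor-like class caseins were read at a low level in most wells. The median was 39.01 CPM in control hormone-sensing luminal-like wells (highest 10439 CPM), 26.4 CPM in basal-like wells (highest 358.5 CPM) and 26.7 CPM in leukocyte-like wells (highest 28491 CPM). On the N1ICD plate it was 3.31 CPM in hormone-sensing luminal-like wells (highest 44.5 CPM), 3.26 CPM in leukocyte-like wells (highest 1104 CPM) and 4.54 CPM in the unnamed cluster (highest 6930 CPM). Within each plate these medians were alike across classes, at 0.132% to 0.194% of the plate's pooled casein level in control and 0.0609% to 0.0849% in N1ICD. The upper N1ICD value was that of the unnamed cluster, which had raised progenitor markers and is not a known non-producing class. The 35 N1ICD and 2 control luminal progenitor-like cells of lowest level lay in the range of these wells of their own plates; the source of reads at that level was not tested.

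A few leukocyte-like wells stood far above that level. On the control plate 6 of 26 had 1000 CPM or more and held 94.99% of the class's casein reads, so that the pooled level, 1302 CPM, was far above the median of 26.7. On the N1ICD plate 1 of 48 did, and the pooled level was 31.5 CPM. Across the 26 control wells the casein level correlated with the summed pan-epithelial markers at a Spearman rho of 0.67 and with the leukocyte markers at -0.14, and across the 48 N1ICD wells at 0.17 and 0.01. Without wells at 500 CPM or more of the pan-epithelial markers the pooled level was 202.8 CPM in control (19 wells) and 7.71 CPM in N1ICD (45 wells). The part of other cells' RNA in these wells was not tested beyond these values.

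Wells below the filter held caseins too. The 50 control wells had a median of 4856 CPM from a median of 110 casein reads, and the N1ICD wells below it had a median of 220.6 CPM from a median of 1 read, with 35 of them (34.7%) at 0. Median depth was 28772 and 665 reads.

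**Figure D5:**
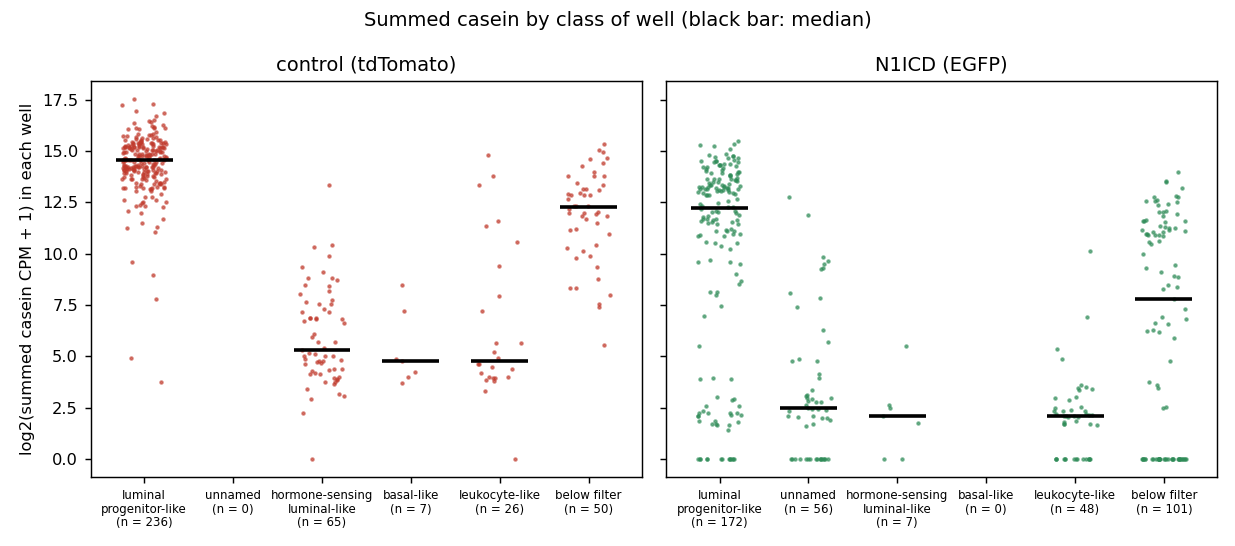
Each point is 1 well, with log2(summed casein CPM + 1) on the y axis and the class of the well on the x axis, control left and N1ICD right; black bars are medians and n is the number of wells. Luminal progenitor-like wells stand highest, the other named classes sit near 26 to 39 CPM in control and near 3 CPM in N1ICD, and a few wells in each of the hormone-sensing luminal-like, leukocyte-like and unnamed classes rise above them.

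Among 5035 genes read in at least 20% of the luminal progenitor-like cells of both plates, those most like the summed caseins across cells were led by Trf, transferrin, a milk iron carrier, with a Spearman rho of 0.43 in control and 0.70 in N1ICD. Next came Igfbp5, an IGF-binding protein, at 0.42 and 0.44, Cck, cholecystokinin, at 0.38 and 0.38, and Btn1a1, a milk fat globule membrane protein, at 0.40 and 0.36. After these came Itm2b, Fam20a (a pseudokinase partner of the casein kinase Fam20c), Dbi, Lcn2 and Clic6, with the lower of the 2 rho values at 0.29 to 0.32. Most opposite were Crip1 (-0.36 and -0.31), Anxa1 (-0.39 and -0.26), Gsn (-0.29 and -0.23), Ptprs (-0.28 and -0.22) and S100a11 (-0.30 and -0.22). The median rho over all 5035 genes was 0.00 in control and 0.05 in N1ICD, and these 9 genes also held ranks 1 to 9 when cells were thinned to equal depth. Milk protein genes did not all go with the caseins. In control and N1ICD, rho was -0.45 and -0.0045 for Ltf, lactoferrin, and -0.33 and -0.18 for Wfdc18. It was -0.084 and 0.23 for Mfge8, 0.0049 and 0.24 for Muc1, 0.20 and 0.41 for Xdh, and 0.22 and 0.55 for Plin2. These are descriptions over cells of 1 plate each. Of the 4 leading genes, Cck stood at 487.5 CPM in control and 130.3 CPM in N1ICD, Btn1a1 at 2377 and 713.6 CPM, Igfbp5 at 3736 and 1924 CPM, and Trf at 26018 and 16999 CPM. Cck (log2 ratio -1.90) and Btn1a1 (-1.73) were lower by less than Csn1s1 (-2.15) but by more than Csn3 (-1.67) and Csn2 (-1.32). Igfbp5 (-0.96) and Trf (-0.61) were lower by less than these 3 caseins.

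Other milk protein genes were lower more often than higher in N1ICD luminal progenitor-like cells: 7 of 13 measured were at least 1.5 times lower and 1 was higher by that much, where all measured genes gave 16.2% lower and 22.8% higher. Their median log2 ratio was -0.61. Lalba, alpha-lactalbumin, the regulator of lactose synthesis, stood at 62.98 and 1.73 CPM (log2 ratio -4.55), from 48 control cells and 3 N1ICD cells with a read. Ltf, lactoferrin, stood at 13614 and 2161 CPM (-2.66). Olah, which ends fatty acid synthesis at medium chain length, had 7.31 CPM in control and only 3 reads in N1ICD. Cel, a milk lipase, was the 1 gene higher, at 49.5 and 84.7 CPM. Mfge8 and Plin2, of the milk fat globule, differed by less than 1.5 times.

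Of 16 regulators from prolactin signalling to casein transcription, all measured, 5 were at least 1.5 times lower and 1 higher, beside 16.2% lower and 22.8% higher among all measured genes. Their median log2 ratio was -0.21. The prolactin receptor Prlr stood at 125.9 and 46.3 CPM (log2 ratio -1.42), Stat5b at 134.9 and 69.5 CPM (-0.95) and Stat5a at 169.9 and 104.6 CPM (-0.69). Cebpb (-0.67) and Jak2 (-0.67) were the other 2. Socs3, a feedback inhibitor of Jak-Stat signalling, was higher, at 82.8 and 193.8 CPM (1.22). Rbpj, the DNA-binding partner of the Notch intracellular domain, stood at 28.1 and 33.9 CPM, and Elf5 at 257.7 and 171.6 CPM.

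Among genes for folding, phosphorylating and secreting caseins, 5 of 17 measured were lower and 1 higher, beside the same 16.2% and 22.8% of all measured genes, with a median log2 ratio of -0.10. The lower genes were the Golgi calcium pumps Atp2c2 (5.79 and 2.71 CPM) and Atp2c1 (190.2 and 122.7 CPM), Nucb2 (67.3 and 37.5 CPM), the secretory regulator Xbp1 (674.3 and 431.8 CPM) and Galnt3 (123.2 and 81.04 CPM). Fam20c, the kinase that phosphorylates caseins, was higher at 3.35 and 6.68 CPM, both low. The chaperone Hspa5 differed little, at 1083 and 1054 CPM.

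The chromosome region around the caseins was otherwise quiet. Within 500 kb of the cluster 36 other genes are annotated, of which 19 were in the count tables and 2 were measured. Amtn, which encodes amelotin of tooth enamel, stood at 18.7 CPM in control and 0.369 CPM in N1ICD luminal progenitor-like cells (log2 ratio -3.84), but its reads came from 7 control cells and 2 N1ICD cells. Sult1d1, a sulfotransferase upstream of Csn1s1, stood at 9.73 and 3.90 CPM (-1.13), from 18 and 6 cells. Between the caseins none of the 3 other genes in the count tables reached 5 CPM: Prr27, Gm7337 and Odam had 3, 5 and 30 control reads and 0, 0 and 2 N1ICD reads. The other 3 genes annotated there were not analysed here.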

How the data were processed

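Single-cell RNA was counted in 2 plates of 384 wells. The authors deposited raw read counts per gene and well. STAR and the mm10 build are named in the submitters' processing notes, while version, annotation, counting tool and strand setting, not given in the sources used here, remain unknown. The values were whole numbers, rows of repeated gene names (492 of 24490) were summed, and no wells were identical. CPM divides by all reads of a well except eGFP. Pooled levels are summed reads over summed depth. Ratios are log2 of CPM plus 1. Cells were clustered per plate (scanpy 1.11.5, Leiden resolution 0.8, 2000 variable genes, 15 components), without milk genes, and named from marker lists. No doublet caller was run, and leaving out wells far above the median number of genes was an alternative. With 1 plate per genotype no test was made. Intervals are exact 95% Poisson or Clopper-Pearson. Ratios and thinning were checked on Poisson counts drawn from 1 profile per simulated plate, and correlations on simulated pairs of counts. These checks cover the calculations only, since the simulated plates lack the spread of casein levels between real cells. Transcript lengths are those of the longest GENCODE principal transcript. Genes named besides the caseins were those most like or most opposite to them, up to 4 of largest ratio in each of 4 lists with others shown for context after their values were seen, and genes within 500 kb; 1 gene that this rule names is not reported here. Members and lists were chosen with earlier results of these data known. The low-end cutoffs of 0.2% and 1% and the 2 cells left out per cluster were chosen after seeing the data.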

Additional observations from a re-analysis of the deposited data

How the results depend on the processing

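No paired analysis was possible because each genotype is 1 plate and cell numbers run in accession order only. No log2 ratio of a casein changed sign under any alternative run. Over all kept cells the summed ratio of -1.91 was -1.85 under the stricter filter of 100000 reads and 1500 genes, -2.15 without possible doublets, -2.06 as a mean of cells, -2.06 thinned, -1.98 with median-of-ratios scaling, -1.93 on reads outside the caseins, -2.11 and -1.71 in columns 1 to 12 and 13 to 24, -2.01 without the 10 highest cells of each plate and -1.73 without leukocyte-like cells. In luminal progenitor-like cells, reclustered under each filter, the ratio of -1.82 was, in the same order up to the 10 highest cells, -2.07, -1.86, -1.85, -1.84, -1.93, -1.86, -2.08, -1.56 and -1.92, and -2.01 under the looser filter of 20000 reads and 500 genes. It was -1.79 when milk genes entered the clustering, -1.69 at resolution 0.4, -2.17 with both plates clustered together and -1.86 by markers alone. Adding the unnamed cluster, an alternative chosen after seeing the data, gave -2.19. The share of kept cells with a casein read, 93.7% in control and 62.5% in N1ICD, was 99.4% and 83.7% unthinned and 80.5% and 50.9% at 5 or more reads, and the control share was 96.6% at 100000 reads. The leukocyte-like level, 1302 CPM in control and 31.5 CPM in N1ICD, was 45.8 and 16.96 CPM in 3 and 11 wells with Ptprc at 5 or more reads and no Epcam, Krt8 or Krt18 read, 1270 and 172.9 CPM with the plates clustered together, 26.7 and 3.26 CPM as a median, 917.9 and 7.68 CPM without the highest well, and 202.8 and 7.71 CPM without wells rich in pan-epithelial markers, chosen after seeing the data. Under the stricter filter it was 845.2 CPM in control. The median correlation among control pairs, 0.45, was 0.63 over all kept cells. Median-of-ratios scaling shifted all genes by 0.11 in luminal progenitor-like cells. The cause of these shifts was not tested. Counting error was small beside them, and the number of plates, 1 per genotype, is what limits each comparison.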
